A study of Mus musculus with 6 samples.

Results

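MyD88, the IRAK kinases and the TRAF proteins form the relay between Toll-like, interleukin-1 and TNF family receptors and the transcription factor NF-κB. The genes described here are Myd88, Irak1, Irak2, Irak3, Irak4, Traf1, Traf2, Traf3, Traf5 and Traf6, which were chosen by gene symbol. All 10 were found among the 16171 symbols of the deposited count table. They were measured by RNA-seq in Raw264.7 cells, an established mouse macrophage line labelled wild type, on titanium with a calcium phosphate nanowire coating (THCaP, 3 libraries) and on titanium with titanate nanowires from alkaline heat treatment (TH, the control surface, 3 libraries). Cells of both groups were seeded for 12 h, exposed to 1 µg/mL of lipopolysaccharide (LPS, which macrophages sense as a sign of bacteria) for 2 h and then cultured for 1 d. The comparison asks how the coating changes gene expression in these macrophages. LPS was given to every library, so these data hold no surface without it, and the macrophages come from a single line. Libraries carry their labels' numbers, THCaP1 to THCaP3 and TH1 to TH3.

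As background, LPS is sensed by Toll-like receptor 4, whose cytoplasmic domain recruits MyD88. MyD88 assembles with the kinase IRAK4, which engages IRAK1 and IRAK2, and these hand the signal to the ubiquitin ligase TRAF6, which leads to activation of the kinase TAK1, of the I-κB kinases and of NF-κB. IRAK3, also called IRAK-M, restrains this relay in macrophages. TRAF3 serves the TRIF branch that leads to type I interferon and, with TRAF2, holds the noncanonical NF-κB pathway in check. TRAF1, TRAF2 and TRAF5 act mainly below TNF family receptors such as CD40, and TRAF1 is the TRAF without a RING domain.

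Of the 10 genes, Irak2, Traf1 and Traf5 fell on THCaP and no member rose, where 12.0% of all tested genes were called lower (edgeR adjusted p under 0.05), 11.6% higher and 23.6% in all. Irak2 fell 2.15-fold and Traf1 2.26-fold, with groups that did not overlap. Irak1, Irak3 and Myd88 had small positive log2 fold changes that did not pass the test, and Irak4 and Traf6 lay within 0.1 of no change on the log2 scale. The called decreases were in 1 of the 4 IRAK genes and 2 of the 5 TRAF genes. The share of members called was near that over all tested genes. Traf5 kept its call in 9 of the 16 alternatives run, and Irak2 and Traf1 kept theirs in all 16. The MyD88, IRAK4 and TRAF6 transcripts were not called.

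The promoter windows of the 3 genes that fell are shown first, with that of Traf3, where the NF-κB consensus was found, and that of Myd88, where the interferon response element was found. Each window runs from 250 bases before to 50 bases after a RefSeq start on GRCm38.p6, is written 5′ to 3′ on the strand of the gene, and carries in capitals every match on either strand to the NF-κB consensus, the GC box GGGCGG, the CCAAT box or the interferon response element (GAAA, any 2 bases, GAAA).
Traf1 (chr2:34961723-34962022, minus strand): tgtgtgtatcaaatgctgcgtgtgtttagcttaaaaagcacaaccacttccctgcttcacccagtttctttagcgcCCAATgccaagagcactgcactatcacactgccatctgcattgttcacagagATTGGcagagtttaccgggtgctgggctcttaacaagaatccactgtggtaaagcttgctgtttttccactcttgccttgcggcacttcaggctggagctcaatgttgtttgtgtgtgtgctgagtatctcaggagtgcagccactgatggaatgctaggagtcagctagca
Irak2 (chr6:113638217-113638516, plus strand): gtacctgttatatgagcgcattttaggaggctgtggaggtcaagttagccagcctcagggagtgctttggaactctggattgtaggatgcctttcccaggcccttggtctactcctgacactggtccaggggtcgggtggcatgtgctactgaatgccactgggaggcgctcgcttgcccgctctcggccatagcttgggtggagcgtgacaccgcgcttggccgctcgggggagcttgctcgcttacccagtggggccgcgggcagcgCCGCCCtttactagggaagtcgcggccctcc
Traf5 (chr1:192092550-192092849, minus strand): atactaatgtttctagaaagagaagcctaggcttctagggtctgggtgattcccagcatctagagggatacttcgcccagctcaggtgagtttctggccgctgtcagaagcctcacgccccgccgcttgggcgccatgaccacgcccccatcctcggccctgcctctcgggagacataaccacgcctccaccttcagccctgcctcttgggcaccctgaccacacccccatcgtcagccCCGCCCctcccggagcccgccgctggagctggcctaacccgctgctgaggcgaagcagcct
Traf3 (chr12:111166120-111166419, plus strand): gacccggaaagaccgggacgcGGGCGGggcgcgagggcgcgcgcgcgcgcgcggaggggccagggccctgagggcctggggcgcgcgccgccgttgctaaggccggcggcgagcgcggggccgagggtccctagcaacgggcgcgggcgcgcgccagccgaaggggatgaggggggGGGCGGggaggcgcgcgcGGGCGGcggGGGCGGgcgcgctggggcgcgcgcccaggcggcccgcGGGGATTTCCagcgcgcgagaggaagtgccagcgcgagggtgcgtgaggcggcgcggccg
Myd88 (chr9:119339969-119340268, minus strand): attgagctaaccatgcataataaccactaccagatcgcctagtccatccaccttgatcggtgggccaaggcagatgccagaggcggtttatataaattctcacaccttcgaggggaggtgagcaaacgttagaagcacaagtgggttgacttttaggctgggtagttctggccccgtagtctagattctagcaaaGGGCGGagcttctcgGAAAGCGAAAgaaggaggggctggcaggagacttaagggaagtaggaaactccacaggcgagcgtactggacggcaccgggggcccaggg

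All 10 members had at least 1 window, 12 in all. Members are counted with a match in any of their windows, and all were tested here. The shares are of single windows of all genes, tested here or not, so the measures differ. The NF-κB consensus was in 1 member's window, that of Traf3, as GGGGATTTCC beginning at base −10 from the start, and 4.50% of all 32851 windows in the RefSeq table held it. The GC box was in windows of 9 of the 10 members, against 35.7% of all windows, and Traf1 was the member without it. The CCAAT box was in windows of 3 members, against 37.4% of all windows: in that of Traf1 once on each strand, at −174 and −122, in that of Irak4 at −40 and in the second window of Irak3 at −12. The interferon response element was in the Myd88 window, as GAAAGCGAAA at −40, and in 3.44% of all windows. The G and C content of the printed windows was 48.7% for Traf1, 54% for Myd88, 62.3% for Irak2, 63.7% for Traf5 and 84% for Traf3. A match describes letters and is no measured site, and a window without a match says only that these letters are not in it.

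Library totals ran from 28000099 to 30317108 counts, and a member had 368 to 5634 counts in a library. Of all genes, 11480 were expressed highly enough to be tested with edgeR's quasi-likelihood test, and genes with a Benjamini-Hochberg adjusted p under 0.05 are called. It called 1333 genes up and 1376 down on THCaP, and with libraries scaled by their totals alone 1904 higher and 1063 lower. These counts were 294 and 506 without TH2, 294 and 490 without TH3, 291 and 465 without THCaP1, 734 and 937 without THCaP2, and 2145 and 2020 without THCaP3. On the first principal component of log2 CPM (58.7% of the variance) THCaP3 stood nearest to TH, at 5.52, against 19.8 and 37.1 for THCaP1 and THCaP2 and −22.8 to −17.0 for the TH libraries. On the second (13.8%) TH1 stood apart at 22.6, the others lying between −10.5 and 0.954. All 10 macrophage markers of the list passed the filter, and their summed level was 4097 to 4247 CPM in THCaP libraries and 3896 to 4552 CPM in TH libraries. Of these markers edgeR called 1 higher, the lysozyme gene Lyz2, and 0 lower, where 23.6% of all tested genes were called in either direction. Csf1r, higher on THCaP, and Cd14, lower, lay just above the threshold (edgeR adjusted p = 0.0504 and 0.0501). At an unadjusted p under 0.05 edgeR gave 3 markers higher and 3 lower, where 4484 of all 11480 tested genes passed in either direction. DESeq2 called 3 higher and 2 lower, and limma-voom called 2 higher and 0 lower. No stromal or neutrophil marker passed the filter, with at most 9 and 1 counts per gene and library, S100a8 was at 0 in all 6 libraries, and lymphoid markers reached 19 counts. The endothelial list summed to 2.91 to 4.91 CPM in THCaP libraries and 5.23 to 6.42 CPM in TH libraries, mostly Pecam1, a gene that myeloid cells also express. The part of these differences in the results was not tested.

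Against this background, 3 of the 10 members were called lower and 0 higher. Across all tested genes 12.0% were called lower and 11.6% higher, 23.6% in all. At an unadjusted p under 0.05 edgeR gave 1 member higher, Irak1, and 3 lower, where 4484 of all 11480 tested genes passed in either direction. DESeq2 and limma-voom called 0 higher and 3 lower, as edgeR did. The groups did not overlap in 6 members, 4 lower and 2 higher on THCaP, and in 43.4% of all tested genes (21.3% lower, 22.1% higher). The share of members called was near the background. Irak2 and Traf1 were both called and at least 2-fold lower, as were 1.25% of all tested genes. Traf1 had the decrease ranked 117 and Irak2 that ranked 143 of 11480 genes. The median log2 fold change of the 10 members was −0.15, against 0.0064 for all tested genes. In these bulk samples fewer cells with a transcript and less of it per cell cannot be told apart.

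**Figure D1:**
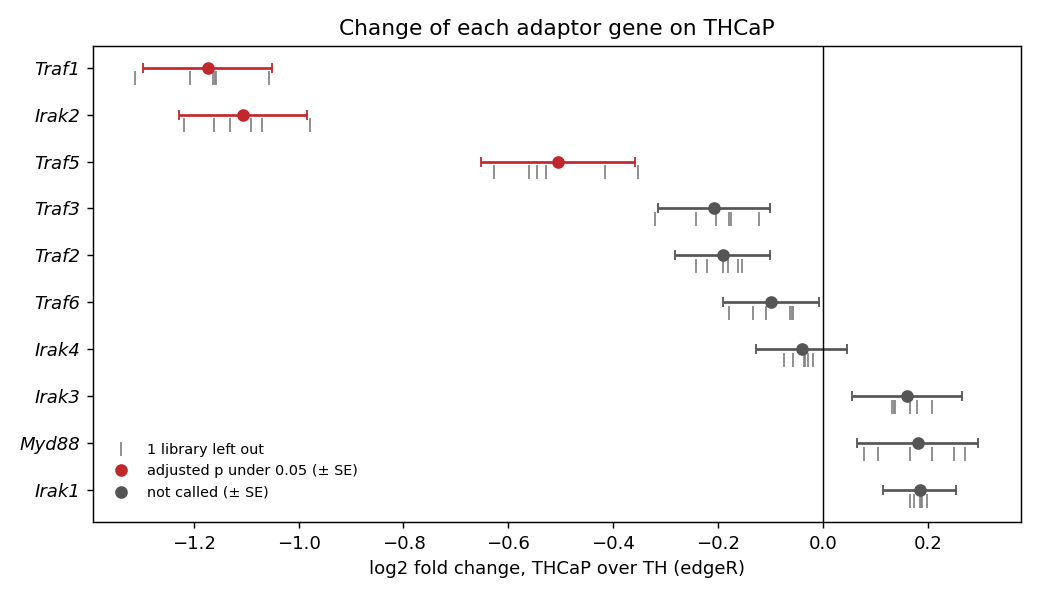
Log2 fold change (THCaP over TH, edgeR) of each of the 10 genes with its SE, red where the adjusted p was under 0.05, and grey ticks for the value with 1 library left out. Traf1 (−1.17) and Irak2 (−1.11) lie below −1, Traf5 lies at −0.51, and the other genes lie between −0.21 and 0.18.

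Myd88, the adaptor itself (chromosome 9, 119335934 to 119341411, minus strand, GRCm38, protein coding), had overlapping levels on the surfaces. It had 50.1, 59.3 and 46.9 CPM (counts scaled by library size with TMM factors) in THCaP1 to THCaP3, against 51.6, 45.3 and 41.0 CPM in TH1 to TH3. THCaP2 was the highest library and TH3 the lowest, and the groups overlapped. The log2 fold change was 0.18 (SE 0.12; edgeR adjusted p = 0.271). Leaving out single libraries moved it between 0.078 and 0.27 and called it in no case. Of the exonic bases annotated to Myd88, 11.3% are shared with Acaa1a on the opposite strand. How the counting treated strand is not known from these sources, and reads of this stretch may belong to either gene.

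Among the IRAK genes only Irak2 was called. Irak2 (chromosome 6, 113638467 to 113695026, plus strand) encodes the kinase-like family member that sustains signalling in mouse macrophages stimulated through Toll-like receptors. It had 92.3, 72.9 and 103 CPM in THCaP1 to THCaP3, against 178, 197 and 202 CPM in TH1 to TH3. Every THCaP library lay below every TH library, with THCaP2 lowest and THCaP3 nearest to TH. The means were 89.3 ± 15.1 CPM on THCaP and 192 ± 12.6 CPM on TH (SD, n = 3 each). That is a log2 fold change of −1.11 (SE 0.12, edgeR adjusted p = 0.00168). The log2 fold change stayed between −1.22 and −0.98, and Irak2 stayed called, in all 16 alternatives run (edgeR, DESeq2 and limma adjusted p up to 0.0314).

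Irak1 (chromosome X, 74013914 to 74023918, minus strand), the kinase that is modified and degraded as the relay fires, differed by a small amount that was not called. It had 162, 155 and 157 CPM in THCaP1 to THCaP3, against 139, 140 and 137 CPM in TH1 to TH3. The 3 THCaP libraries all lay above the TH libraries, and the spread within each group was small. The log2 fold change was 0.18 (SE 0.07), which missed the threshold over all genes (edgeR adjusted p = 0.0826). Scaled by library totals alone it was 0.24 and was called (edgeR adjusted p = 0.036).

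The inhibitory Irak3 (chromosome 10, 120141648 to 120202130, minus strand) was the least abundant of the 10 genes. It had 15.1, 15.2 and 13.6 CPM in THCaP1 to THCaP3, against 12.6, 13.5 and 13.2 CPM in TH1 to TH3. The THCaP libraries lay above the TH libraries, THCaP3 by a narrow margin, and the gene was not called (log2 fold change 0.16, SE 0.10, edgeR adjusted p = 0.278). Irak4 (chromosome 15, 94543643 to 94581815, plus strand), the kinase that MyD88 recruits directly, had 23.5, 23.1 and 25.0 CPM in THCaP1 to THCaP3, against 24.8, 24.8 and 24.0 CPM in TH1 to TH3. Its groups overlapped, and the log2 fold change of −0.04 (SE 0.09, edgeR adjusted p = 0.757) turned to 0.012 when scaled by library totals alone. Irak3 shares 5.22% of its exonic bases with Tmbim4 and Irak4 shares 7.87% with Twf1, each on the opposite strand. Of the called members, Irak2 shares 4.44% with Gm43963 and Traf5 shares 4.49% with Gm26879, also on the opposite strand. Neither Gm43963 nor Gm26879 was among the tested genes.

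**Figure D2:**
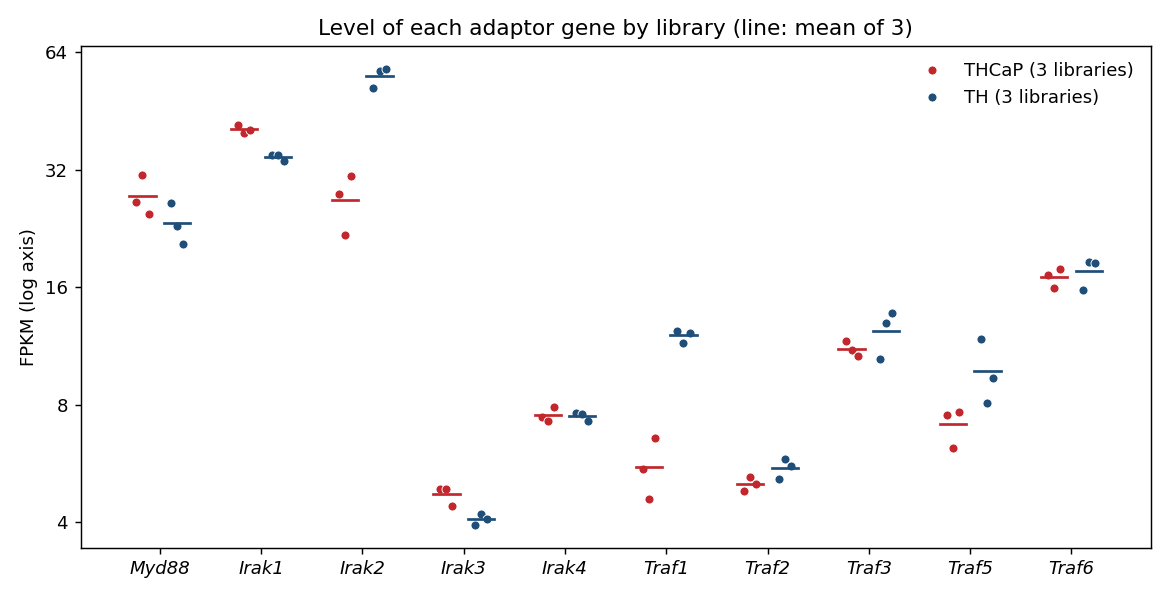
FPKM (counts scaled by gene length and library total, log axis) of each gene in the 3 THCaP libraries (red, left) and the 3 TH libraries (blue, right), with a line at each mean. Irak2 averages 26.8 FPKM on THCaP and 55.7 FPKM on TH, and Traf1 averages 5.54 and 12.0 FPKM, with no overlap between the groups in either gene.

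Among the TRAF genes, Traf1 fell most. Traf1 (chromosome 2, 34941750 to 34961772, minus strand) encodes a partner of TRAF2 that modulates signalling from TNF family receptors and is itself induced by NF-κB. It had 21.0, 17.8 and 25.3 CPM in THCaP1 to THCaP3, against 49.3, 46.1 and 49.2 CPM in TH1 to TH3. No THCaP library came near a TH library, and within THCaP the order was that of Irak2, with replicate 2 lowest and replicate 3 highest. On the first principal component of all tested genes, too, THCaP2 lay furthest from TH and THCaP3 nearest. The means were 21.4 ± 3.74 CPM on THCaP and 48.2 ± 1.82 CPM on TH (SD, n = 3 each). That is a log2 fold change of −1.17 (SE 0.12, edgeR adjusted p = 0.0014). Traf1 stayed called in all 16 alternatives run, with log2 fold changes from −1.31 to −1.01 (adjusted p up to 0.0314).

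Traf5 (chromosome 1, 191997205 to 192092559, minus strand), which acts below CD40 and other TNF family receptors, fell less and less firmly. It had 18.0, 14.9 and 18.3 CPM in THCaP1 to THCaP3, against 29.1, 20.0 and 23.5 CPM in TH1 to TH3. The groups did not overlap, but TH1 stood high and TH2 lay close to the THCaP libraries. The log2 fold change was −0.51 (SE 0.15, edgeR adjusted p = 0.0359). The call was lost without TH1 (−0.35, adjusted p = 0.0893), TH3 (−0.53, 0.0921), THCaP1 (−0.55, 0.0854) or THCaP2 (−0.42, 0.0791).

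Traf2, Traf3 and Traf6 had negative log2 fold changes and were not called. Traf2 (chromosome 2, 25517982 to 25546940, minus strand), which links TNF receptors to the cellular inhibitor of apoptosis ligases, had 24.0, 26.1 and 25.0 CPM in THCaP1 to THCaP3, against 26.6, 30.1 and 29.1 CPM in TH1 to TH3. Its groups were separated by a small gap in CPM and overlapped in FPKM (log2 fold change −0.19, SE 0.09, edgeR adjusted p = 0.147). Traf3 (chromosome 12, 111166370 to 111267153, plus strand) had 88.9, 84.5 and 81.1 CPM in THCaP1 to THCaP3, against 82.3, 102 and 109 CPM in TH1 to TH3. TH1 lay among the THCaP libraries: with all 6 libraries the log2 fold change was −0.21 (SE 0.11, edgeR adjusted p = 0.181), and without TH1 it was −0.32 and was called (edgeR adjusted p = 0.0285). Traf6 (chromosome 2, 101678429 to 101701669, plus strand), the ligase that receives the signal from the IRAKs, had 105, 97.3 and 108 CPM in THCaP1 to THCaP3, against 98.6, 117 and 117 CPM in TH1 to TH3. Its groups overlapped, with TH1 again low, and the log2 fold change was −0.10 (SE 0.09, edgeR adjusted p = 0.445).

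Levels of different genes were compared in FPKM, which accounts for gene length. In THCaP libraries the order of the mean levels was Irak1 (40.6 FPKM), Myd88 (27.4), Irak2 (26.8), Traf6 (17.0), Traf3 (11.1), Irak4 (7.54), Traf5 (7.13), Traf1 (5.54), Traf2 (5.01) and Irak3 (4.72). In TH libraries it was Irak2 (55.7 FPKM), Irak1 (34.5), Myd88 (23.3), Traf6 (17.6), Traf3 (12.4), Traf1 (12.0), Traf5 (9.75), Irak4 (7.47), Traf2 (5.52) and Irak3 (4.07). Irak2 was thus the most abundant of the 10 transcripts on TH and stood behind Irak1 on THCaP. In THCaP libraries the ranges of Myd88 and Irak2 overlapped, as did those of neighbours from Irak4 down to Irak3. In TH libraries the ranges of Traf3 and Traf1 and those of Traf1 and Traf5 overlapped, and the other neighbours were separate.

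The balance within the families was read from ratios of FPKM within a library, which do not depend on library scaling. Irak2 over Irak1 was 0.666, 0.549 and 0.763 in THCaP1 to THCaP3, against 1.49, 1.64 and 1.72 in TH1 to TH3. Irak2 was below Irak1 in every THCaP library and above it in every TH library, a difference of −1.30 in mean log2 ratio. Traf1 over Traf2 was 1.13, 0.882 and 1.31 in THCaP1 to THCaP3, against 2.40, 1.98 and 2.19 in TH1 to TH3 (difference of −0.997 in mean log2 ratio). Both ratios were separated between the surfaces, and for each the two-sided exact permutation p was 0.1, the smallest that 3 against 3 libraries allow (0.3 with Benjamini-Hochberg adjustment over 6 pairs). In the other pairs the groups overlapped: the mean log2 ratio differed by 0.20 for Irak3 over Irak4 (exact permutation p = 0.2), −0.30 for Traf5 over Traf3 (p = 0.5), −0.10 for Traf3 over Traf6 (p = 0.4) and −0.22 for Irak4 over Myd88 (p = 0.2). Summed over the 4 IRAK genes the level was 79.7 ± 5.28 FPKM on THCaP and 102 ± 3.08 FPKM on TH (SD, n = 3 each), and Irak2 made up 29.6% to 36.9% of it in THCaP libraries and 52.8% to 56.3% in TH libraries. Summed over the 5 TRAF genes it was 45.8 ± 2.49 FPKM on THCaP and 57.3 ± 1.90 FPKM on TH, of which Traf1 made up 10.7% to 13.7% in THCaP libraries and 20.3% to 22.3% in TH libraries.

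**Figure D3:**
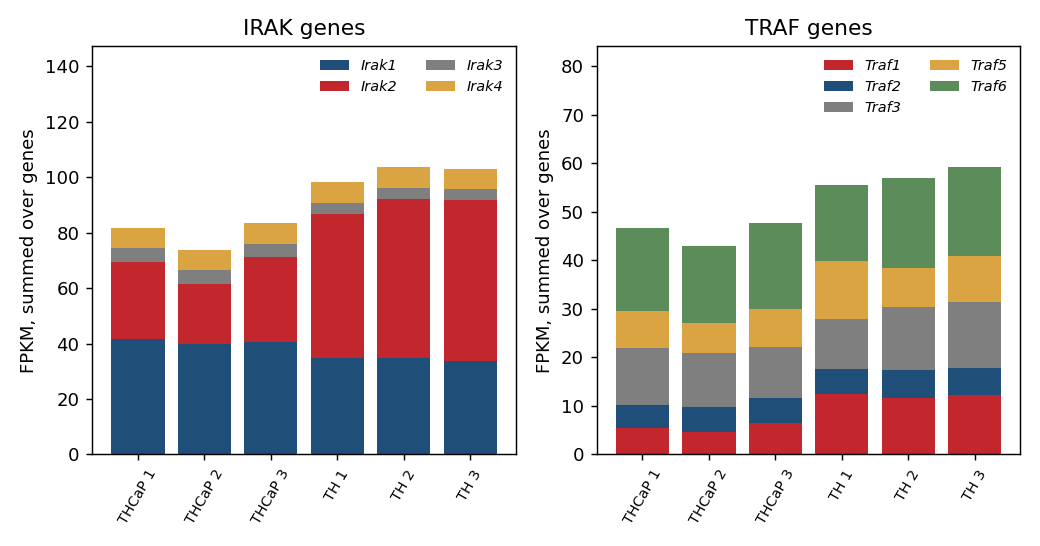
FPKM of the 4 IRAK genes (left) and the 5 TRAF genes (right), stacked for each library, THCaP libraries first. The IRAK sum runs from 73.7 to 83.6 in THCaP libraries and from 98.1 to 104 in TH libraries, and the red Irak2 and Traf1 segments are smaller in each THCaP library than in any TH library.

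Genes whose profile over the 6 libraries was most like that of Traf1, the called member with the largest decrease, were taken by the root mean square distance of log2 CPM centred on each gene's mean, among 9508 genes with at least 5 CPM. They were Fam214b (distance 0.049 on the log2 scale), Zfand2a (0.077), which encodes a zinc finger protein induced by arsenite, and the chemokine gene Ccl4 (0.084). All fell on THCaP: Fam214b had a log2 fold change of −1.14 (SE 0.13), Zfand2a of −1.06 (SE 0.11) and Ccl4 of −1.22 (SE 0.16; edgeR adjusted p at most 0.00314 for these genes). Likeness over 6 libraries includes the difference between the surfaces, on which Traf1 was called. No member was called higher, so no such genes were sought for an increase.

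The genes around the adaptors were read from lists by role, which were chosen with earlier results of these data known. Their counts are thus no independent comparison with the shares over all genes. Of 11 tested NF-κB subunits and I-κB proteins 8 fell and 0 rose, with a median log2 fold change of −0.54. Of all tested genes 12.0% were called lower and 11.6% higher. At an unadjusted p under 0.05, which 4484 of all 11480 tested genes passed in either direction, also 0 were higher, as with DESeq2 and limma-voom. The I-κB family co-regulator Bcl3 had 12.1, 11.3 and 12.6 CPM in THCaP1 to THCaP3, against 24.6, 29.1 and 26.4 CPM in TH1 to TH3 (log2 fold change −1.15, SE 0.11, edgeR adjusted p = 0.000787). Bcl3 was thus about as much lower as Irak2 and Traf1, without overlap. The inhibitor gene Nfkbie (−0.89, SE 0.12) and the noncanonical subunit gene Relb (−0.84, SE 0.12) also fell, and the genes not called were Nfkb1 (0.09, SE 0.08), Rela (−0.13, SE 0.08) and Nfkbid (−0.05, SE 0.12).

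Of 15 tested inhibitors of the pathway 7 fell and 0 rose, with a median of −0.28, where 12.0% of all tested genes were called lower and 11.6% higher. No inhibitor was higher at an unadjusted p under 0.05 (4484 of all 11480 tested genes in either direction) or by DESeq2 or limma-voom. The number lower was 4 without TH2, TH3, THCaP1 or THCaP2, taken out singly. Over all tested genes the number lower went from 1376 to 506, 490, 465 and 937 in these settings. The RNase gene Zc3h12a (−0.81, SE 0.12), the ubiquitin-editing enzyme gene Tnfaip3 (−0.75, SE 0.15) and its binding partner Tnip1 (−0.69, SE 0.09) led the decreases. Tnfaip3 had 34.3, 26.0 and 31.7 CPM in THCaP1 to THCaP3, against 41.4, 59.6 and 54.3 CPM in TH1 to TH3, so that TH1 lay nearest to THCaP. Its call was lost with unfiltered log2(FPKM + 1) (limma adjusted p = 0.0594). Irak3, an inhibitor among the members, had a log2 fold change of 0.16 and was not called.

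Of 9 tested ubiquitin enzymes (of 11 listed) 4 fell and 0 rose, with a median of −0.07, against 12.0% lower and 11.6% higher over all tested genes. At an unadjusted p under 0.05, 1 was higher, where 4484 of all 11480 tested genes passed in either direction. DESeq2 and limma-voom called 0 higher, and 1 was called higher without TH1 or without THCaP3. The inhibitor of apoptosis genes Birc3 (−0.90, SE 0.10) and Birc2 (−0.63, SE 0.11), whose products bind TRAF1 and TRAF2, and the IRAK-directed ligase gene Peli1 (−0.47, SE 0.09) fell. Birc3 had 103, 88.0 and 105 CPM in THCaP1 to THCaP3, against 163, 197 and 190 CPM in TH1 to TH3. The order within THCaP, with replicate 2 lowest, was again that of Irak2 and Traf1, and that of the libraries on the first principal component. Of 15 tested kinases and subunits downstream 2 fell and 1 rose, with a median of −0.07, counts near or below the shares over all tested genes (12.0% lower, 11.6% higher). The numbers were 1 lower without TH2 or TH3, 4 lower without THCaP3, and 0 higher without TH2, TH3 or THCaP1. The noncanonical I-κB kinase gene Ikbke fell (−0.81, SE 0.09), with 32.4, 32.9 and 30.2 CPM in THCaP1 to THCaP3, against 50.3, 60.3 and 57.0 CPM in TH1 to TH3. Map3k8, the kinase upstream of ERK, fell (−0.67, SE 0.13), a call lost without TH2 (edgeR adjusted p = 0.0506) or TH3 (0.05002). Ripk1, a kinase of the TNF receptor complex, rose (0.37, SE 0.09), a call lost without TH2 (0.0905), TH3 (0.0806) or THCaP1 (0.0782).

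Of 18 tested receptors (of 22 listed) 3 fell and 2 rose, with a median of −0.0031, counts near the shares over all tested genes (12.0% lower, 11.6% higher). The numbers were 5 lower without THCaP3, 2 lower without TH2, TH3, THCaP1 or THCaP2, and 1 higher without TH2, TH3 or THCaP1. With DESeq2, RLE factors, no filter, 5 CPM in 3 libraries or the replicate block, 4 receptors were called lower. Cd40, whose product recruits TRAF proteins directly, had 10.8, 7.83 and 14.0 CPM in THCaP1 to THCaP3, against 31.1, 37.0 and 38.5 CPM in TH1 to TH3 (log2 fold change −1.71, SE 0.19, edgeR adjusted p = 0.00166). Its log2 fold change was below that of each of the 10 adaptor genes. The TNF receptor gene Tnfrsf1b fell (−0.50, SE 0.09), and Il1rl1, the interleukin-33 receptor that signals through MyD88, rose (1.22, SE 0.24). Of 16 tested further adaptors and TRAF-binding proteins (of 17 listed) 5 fell and 2 rose, with a median of −0.13. The shares over all tested genes were 12.0% lower and 11.6% higher. In this list the numbers were 2 lower without TH2, TH3 or THCaP1, 3 lower without THCaP2, and 1 higher without TH2, TH3 or THCaP1. Over all tested genes 506, 490, 465 and 937 were lower without TH2, TH3, THCaP1 and THCaP2, taken out singly. The numbers higher were 294, 294 and 291 without TH2, TH3 and THCaP1. Ticam1, which encodes TRIF, fell (−0.56, SE 0.10), while Traip (0.61, SE 0.12), a ubiquitin ligase gene with roles in DNA replication, and Traf3ip3 (0.48, SE 0.11) rose. The Traf3ip3 call was lost without TH2 (edgeR adjusted p = 0.0572), TH3 (0.0828) or THCaP1 (0.0799).

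The remaining TRAF genes, Traf4 and Traf7, were named after their values were seen. Traf4 fell, with 16.0, 17.0 and 18.6 CPM in THCaP1 to THCaP3, against 20.1, 23.4 and 25.5 CPM in TH1 to TH3 (log2 fold change −0.42, SE 0.12, edgeR adjusted p = 0.0312). Its call was lost without TH2 (edgeR adjusted p = 0.101), TH3 (0.129), THCaP1 (0.127) or THCaP2 (0.056). Traf7 had 163, 167 and 164 CPM in THCaP1 to THCaP3, against 146, 144 and 144 CPM in TH1 to TH3, and was not called (0.19, SE 0.07, edgeR adjusted p = 0.0744). It was called with libraries scaled by their totals alone (0.24, edgeR adjusted p = 0.0321) and in the 3 fits of log2 FPKM (limma adjusted p from 0.0290 to 0.0421).

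**Figure D4:**
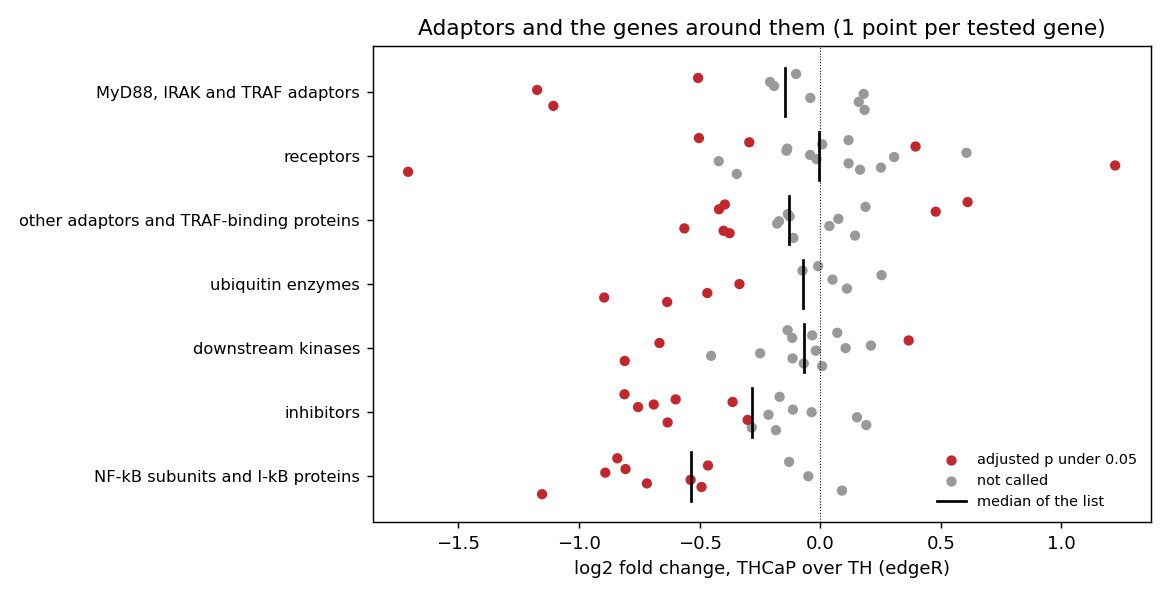
Log2 fold change (THCaP over TH, edgeR) of every tested gene of the 10 adaptors and of 6 lists around them, red where the adjusted p was under 0.05, with a black line at the median of each list. The NF-κB and I-κB list lies furthest to the left (median −0.54) and the receptors lie around 0 (median −0.0031).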

How the data were processed

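RNA-seq libraries of 3 THCaP and 3 TH samples were analysed, grouped by their labels. The deposited counts are whole reads per gene symbol, made by the authors with fastp, HISAT2 and HTSeq on mm10, per the submitters' processing notes. The sources used here give no tool versions, annotation or strand setting. FPKM values were also deposited by the authors. For 11079 genes with at least 10 counts in every library, the length implied by FPKM and counts was a whole number of bases (tolerance 0.01) in 100% of genes, so FPKM carry no further information and served to compare levels between genes and in alternatives.

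The main test was edgeR's quasi-likelihood F test (edgeR 4.0.16 under R 4.3.3, robust, with TMM factors and no covariate) of THCaP against TH in the 11480 genes that filterByExpr kept (minimum count 10, total 15), with Benjamini-Hochberg adjustment over all tested genes and a threshold of 0.05. SEs were derived from the log2 fold change and F. The scripts were tested on simulated counts whose means and dispersions came from the fit of these data. There edgeR recovered 66% of the genes changed by 0.5 on the log2 scale and 90% of those changed by 1. Smaller changes were not simulated. Ratios were tested by exact permutation (scipy 1.17.1). Alternatives were DESeq2 1.42.0, limma 3.58.1 (voom, and log2 of FPKM plus 1 or 0.1 filtered at a mean of 1 FPKM or unfiltered), RLE factors, library totals, no filter, 5 CPM in 3 libraries, a block for the replicate number, and the omission of single libraries.

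The members and the gene lists were chosen with earlier results of these data known. The naming rule took, in each list, up to 3 called genes with at least 5 CPM and the largest change, and the 3 profiles nearest to the called member with the largest change in each direction. Within each surface, libraries differed beyond sampling noise (chi-square per degree of freedom 3.84 to 48.4), and each was kept as its own sample. The labels do not say that they came from separate cultures, so the spread behind each p-value is that among these samples and may be technical. Gene positions came from GENCODE vM21 (GRCm38, the assembly of mm10), promoter sequences from RefSeq on GRCm38.p6.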

Additional observations from a re-analysis of the deposited data

How the results depend on the processing

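Irak2 and Traf1 kept their call and direction in all 16 alternatives, and so did the lack of a call of Myd88, Irak3, Traf2 and Traf6. Members called lower numbered 2 or 3 in every alternative, and 1 was called higher, Irak1, with library totals (log2 fold change 0.24, adjusted p = 0.036) and with log2(FPKM + 1) (0.23), log2(FPKM + 0.1) (0.24) and unfiltered log2(FPKM + 1) (0.23). Irak4 turned to 0.012, 0.010, 0.011 and 0.010 in these alternatives. Traf5 was not called with log2(FPKM + 1) (−0.39, adjusted p = 0.0563), log2(FPKM + 0.1) (−0.44, adjusted p = 0.0562) or unfiltered log2(FPKM + 1) (−0.39, adjusted p = 0.127). With single libraries left out Traf5 ran from −0.63 to −0.35 and Traf3 from −0.32 to −0.12. Without TH1 the 3 members called lower were Irak2, Traf1 and Traf3, as Traf5 lost its call. The cause of these shifts was not tested. The 6 ratios kept their direction in the 9 alternatives run for them (2 pseudocounts, the replicate block and the omission of each library).

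Over all genes, unfiltered log2(FPKM + 1) called 766 higher and 528 lower, and leaving out single libraries gave 291 to 2145 higher and 465 to 2020 lower. In the lists, unfiltered log2(FPKM + 1) called 1 receptor higher, 2 further adaptors lower, 0 kinases higher and 1 lower, and 3 inhibitors lower. With library totals, log2(FPKM + 1) and log2(FPKM + 0.1), 1 ubiquitin enzyme and 2 kinases were called higher, and DESeq2 called 4 kinases lower. Leaving out single libraries gave 1 to 3 receptors higher and 2 to 5 lower, 1 to 2 further adaptors higher and 2 to 6 lower, 0 to 1 ubiquitin enzymes higher, 0 to 1 kinases higher and 1 to 4 lower, and 4 to 9 inhibitors lower. Of the 22 called genes named outside the members, 16 remained called in all alternatives in which they were tested. Unfiltered log2(FPKM + 1) lost the calls of Map3k8, Ripk1, Tnfaip3, Il1rl1 and Traf4 (limma adjusted p from 0.0537 to 0.0870).

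Deviations from the group means of libraries with the same number correlated at −0.017, −0.062 and 0.048, and not every library correlated best with its own number, so the numbers were not taken to pair libraries. With the replicate number as a block, 1424 genes were called higher and 1457 lower, and the members' count stayed at 3 lower and 0 higher.

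A member had 368 or more counts in each library, and there were 3 libraries a surface.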
